A study of Homo sapiens with 4 samples.

Results

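The transcriptional response to MLN4924 was compared, gene by gene, between PC3 cells and PC3 cells that carry an shRNA against p14ARF. The interaction of a gene was its log2 change with MLN4924 in PC3-shp14ARF cells minus its log2 change in PC3 cells. Members were the 14663 of 43622 genes in the table whose average reached 1 TPM (a level corrected for gene length and scaled to a fixed total) across the 12 libraries, and values were analysed as log2(TPM + 0.1). A positive interaction means a larger rise, a smaller fall or a rise in place of a fall in PC3-shp14ARF cells, and a negative interaction means the opposite. PC3 is an established line of prostatic adenocarcinoma cells without a functional p53 gene. The 4 groups were PC3 cells of genotype wt with DMSO (Ctrl), the same cells with 1 µM MLN4924 (MLN), PC3 cells of genotype Sh ARF with DMSO (shARF), and Sh ARF cells with 1 µM MLN4924 (Both), all for 3 days. Each group had 3 libraries, and it is not stated whether they came from separate cultures, so p-values measure the spread between these libraries, which may be technical. The shRNA was delivered by a retrovirus and the cells were selected with hygromycin. No control shRNA is named for the Ctrl and MLN cells, so the effects of p14ARF depletion and those of viral infection and selection cannot be told apart.

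MLN4924 (pevonedistat) inhibits the NEDD8-activating enzyme. Without NEDD8, cullin-RING ubiquitin ligases are inactive and their substrates accumulate, among them the licensing factor CDT1, the CDK inhibitors p21 and p27, the NF-kB inhibitor IkBα and the antioxidant regulator NRF2. p14ARF is read from an alternative frame of CDKN2A, restrains MDM2 and the nucleolar steps of ribosome production, and has effects on proliferation that do not need p53.

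In the processed table every library summed to 1000000 TPM, so the number of reads behind a value is unknown. Between libraries of a group the Pearson correlation of log2 values lay between 0.9824 and 0.988, and no pair of libraries was identical. The 7 epithelial and PC3 markers examined, among them KRT8, KRT18, EPCAM and VIM, were present in every library. KLK3, a marker of androgen-responsive prostate cells, was listed at 0 throughout, as is known for this line. The summed TPM of 10 markers of other cell types was 180 to 253 in Ctrl, 462 to 629 in MLN, 89.7 to 110 in shARF and 318 to 357 in Both. Most of it was CD68, at 73.7 to 607 TPM. PTPRC, CD3E and VWF stayed at or below 0.322, 0.0558 and 0.0301 TPM. COL1A1 reached 19.7 TPM, PECAM1 12.4, COL3A1 5.92, SYP 3.87 and CHGA 1.08. In bulk RNA, a change in the share of cells in a given state and a change in RNA per cell cannot be told apart.

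The targeted gene was checked first. CDKN2A (GRCh38 chromosome 9, 21967752 to 21995301, minus strand) was at 190, 183 and 177 TPM in Ctrl, 100, 133 and 119 in MLN, 58.2, 58.7 and 60.9 in shARF and 47.2, 41.2 and 54 in Both. Every library of the shRNA line lay below every PC3 library, with and without the drug. The interaction of CDKN2A was 0.32 on the log2 scale (standard error 0.15, limma adjusted p = 0.0988), which did not pass the threshold of 0.05. It passed under 4 of 21 alternative settings, with an adjusted p of 0.0376 without MLN replicate 2 and 0.0342 without Both replicate 3. The transcripts of p14ARF and p16INK4a are counted together in this gene.

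Over all genes tested, 5566 (38.0%) showed a called interaction, that is a limma adjusted p under 0.05. Of these, 2198 (15.0%) were positive and 3368 (23.0%) negative. An interaction beyond 1 on the log2 scale was called in 1272 genes (8.67%), 546 of them above 1 (3.72%) and 726 below −1 (4.95%). In 822 of the 1272 every group mean reached 1 TPM. The split between directions depended on scaling. With median-of-ratios scaling in place of the TPM total, 5962 genes were called, 3158 positive and 2804 negative, so that the positive share of the calls went from 39.5% to 53%. The median interaction over all genes moved from −0.076 to 0.013 with this change.

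**Figure D1:**
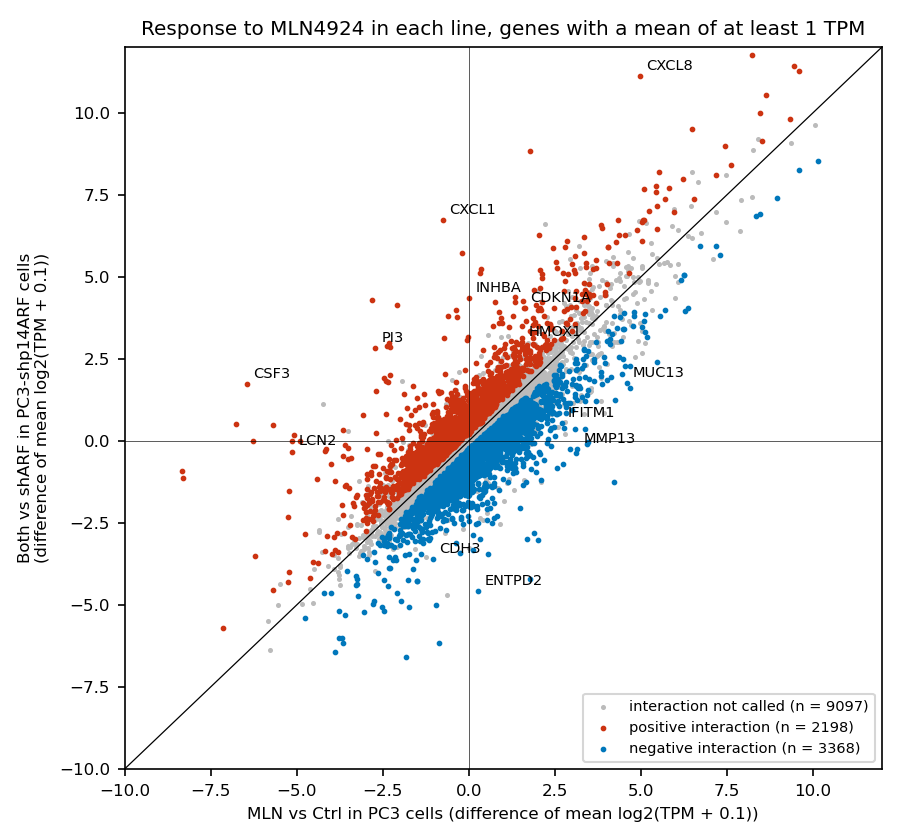
Response of the 14663 genes to MLN4924 in PC3 cells (horizontal axis) against that in PC3-shp14ARF cells (vertical axis), each as a difference of group means of log2(TPM + 0.1), with 2198 positive interactions in red, 3368 negative ones in blue and the diagonal of equal responses. CXCL1 and CXCL8 lie far above the diagonal and ENTPD2 and MMP13 far below it.

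The called interactions took several forms. A called response to MLN4924 in PC3 cells was found in 5609 genes that were higher (38.3%) and 5421 that were lower (37.0%), and in PC3-shp14ARF cells in 4902 (33.4%) and 5927 (40.4%). Among the 2198 positive interactions, 659 genes (30%) fell in both lines, 588 (26.8%) rose in both, 390 (17.7%) fell in PC3 cells with no called change in PC3-shp14ARF cells, 345 (15.7%) rose in PC3-shp14ARF cells alone, and 202 (9.19%) fell in PC3 cells and rose in PC3-shp14ARF cells. Among the 3368 negative interactions, 839 (24.9%) fell in both lines, 783 (23.2%) rose in both, 715 (21.2%) rose with a call in PC3 cells only, 676 (20.1%) fell with a call in PC3-shp14ARF cells only, and 333 (9.89%) rose in PC3 cells and fell in the other line. Opposite responses were the smallest of these classes in each direction.

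The same contrast can be read as a change in the difference between the lines. In DMSO, 4025 genes (27.5%) were higher and 3758 (25.6%) lower in shARF than in Ctrl, and with MLN4924, 2866 (19.5%) were higher and 4341 (29.6%) lower in Both than in MLN. Of the 2198 genes with a positive interaction, 1525 were lower in shARF than in Ctrl and 93 were higher. Of the 3368 with a negative interaction, 2017 were higher in shARF and 256 lower. The difference between the lines was smaller with MLN4924 than in DMSO in 1426 of the positive (64.9%) and 1789 of the negative genes (53.1%). These counts share the shARF and Ctrl libraries with the interaction itself, which alone favours such signs, and they are given as a description.

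To see which functions lay behind these numbers, 30 lists of genes were described by their counts of calls and their median interaction, against 15.0% positive and 23.0% negative calls and a median of −0.076 over all genes. Positive calls were most frequent among acute-phase and epithelial defence genes (10 of 14 tested), matrix genes (22 of 39), cytokines (8 of 15), chemokines (7 of 14), NF-kB regulators (12 of 24) and genes of the integrated stress and unfolded protein response (15 of 35). Negative calls were most frequent among interferon-stimulated genes (28 of 32), replication fork genes (27 of 32), licensing factors (16 of 23), nucleolar factors (26 of 39), DNA damage and recombination genes (20 of 31) and mitotic genes (29 of 45). None of these last 6 lists had a positive call. Under median-of-ratios scaling, 1 licensing factor and 1 gene of the DNA damage list were positive, and the negative counts of the 6 lists lay between 16 and 27. Without Both replicate 4 each of the same 2 lists also had 1 positive call.

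Chemokines that attract neutrophils made up 4 of the 12 most positive genes among those that averaged 5 TPM or more overall and 1 TPM or more in each group, with CXCL1, CXCL8 and CXCL2 in the first places. Their genes lie on chromosome 4 of GRCh38, CXCL8 from 73740519 to 73743716, CXCL6 from 73836640 to 73849064, CXCL1 from 73869393 to 73871308, CXCL3 from 74036589 to 74038807 and CXCL2 from 74097040 to 74099196. The regions upstream of these genes are shown because binding sites for NF-kB and AP-1 there are known to drive their transcription. The sequences are RefSeq windows of GRCh38.p14 from 230 bases before to 20 bases after the start site, printed along the gene's strand, with capitals at a match to the kB motif (GGG, any 2 bases, TTTCC) in CXCL1 and CXCL2 and to the AP-1 motif TGANTCA in CXCL8.
CXCL1, chr4:73869163-73869412, plus strand: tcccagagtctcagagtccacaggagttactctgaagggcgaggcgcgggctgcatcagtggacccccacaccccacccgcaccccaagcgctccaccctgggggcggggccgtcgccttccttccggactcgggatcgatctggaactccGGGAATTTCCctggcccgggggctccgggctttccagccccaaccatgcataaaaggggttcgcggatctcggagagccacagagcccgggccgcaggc
CXCL2, chr4:74099176-74099425, minus strand: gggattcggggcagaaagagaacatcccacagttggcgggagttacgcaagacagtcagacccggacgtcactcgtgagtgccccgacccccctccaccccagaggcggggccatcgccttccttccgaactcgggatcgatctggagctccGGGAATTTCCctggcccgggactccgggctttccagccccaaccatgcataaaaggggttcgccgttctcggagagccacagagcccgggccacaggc
CXCL8, chr4:73740339-73740588, plus strand: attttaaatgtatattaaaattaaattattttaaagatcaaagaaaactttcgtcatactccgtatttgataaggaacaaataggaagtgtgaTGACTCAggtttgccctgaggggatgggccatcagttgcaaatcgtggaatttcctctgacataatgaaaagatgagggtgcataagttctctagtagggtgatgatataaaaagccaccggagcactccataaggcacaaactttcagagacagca
On either strand of windows of 300 bases, the kB letters were found in 1.91% of 35116 windows and the AP-1 letters in 7.71%. Each window printed here and in later paragraphs held no exact match to the other motifs searched. In the CXCL8 window the letters tggaatttcc depart from the kB motif only in their opening base. A missing match is therefore not a missing site. Of the 7 chemokines with a positive interaction, 6 had a window and 5 of these held the kB letters, against 0 of the 3 windows of uncalled chemokines. The CXC genes are related in sequence, so their windows are not independent, and a match is a description of letters, not of binding.

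CXCL1 was at 1323, 1208 and 1266 TPM in Ctrl, 716, 767 and 792 in MLN, 8.62, 7.67 and 6.74 in shARF and 845, 876 and 745 in Both. The shARF libraries stood apart from the other 9 libraries, and Both and MLN overlapped. MLN4924 thus lowered CXCL1 slightly in PC3 cells (log2 change −0.74) and raised it in PC3-shp14ARF cells (6.73), an interaction of 7.47 (standard error 0.13, limma adjusted p = 6.02e-13). CXCL2 had no called change in PC3 cells (log2 change −0.20) and rose in PC3-shp14ARF cells, at 117, 118 and 120 TPM in Ctrl, 108, 95.9 and 106 in MLN, 1.26, 1.76 and 1.59 in shARF and 85.3, 87.7 and 81.5 in Both (interaction 5.91, standard error 0.13, adjusted p = 9.67e-12). Its Both libraries were all below its MLN libraries, by 0.28 on the log2 scale. CXCL6 was at 191, 187 and 197 TPM in Ctrl, 124, 133 and 120 in MLN, 5.19, 7.05 and 7.85 in shARF and 91.6, 98 and 92.9 in Both, with an interaction of 4.42 (adjusted p = 9.82e-10). Here too the low group was shARF, and the 4 groups did not overlap in the pairs compared.

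CXCL8, which encodes interleukin-8, differed from these in that MLN4924 raised it in both lines. It was at 926, 1085 and 983 TPM in Ctrl, 37120, 30320 and 26400 in MLN, 15.1, 18 and 16.6 in shARF and 35971, 37384 and 37772 in Both. The lines did not overlap in DMSO and overlapped with the drug. PC3 cells had a log2 rise of 4.96 and PC3-shp14ARF cells one of 11.12 (interaction 6.16, standard error 0.16, adjusted p = 2.79e-11). CXCL3 also rose in both lines, from a mean of 133 to 451 TPM in PC3 cells and from 0.945 to 458 TPM in PC3-shp14ARF cells (interaction 7.06, adjusted p = 6.07e-10). CXCL1, CXCL2 and CXCL3 are close in sequence, and how reads shared between them were assigned is not given in the sources used here. Among the other chemokines, CCL20 (4.13) and CCL2 (1.89) were positive, CCL28 (−0.83) and CXCL16 (−0.75) were negative, and CXCL10 (1.12), CCL5 (−0.55), CX3CL1 (0.51), CXCL11 (0.15) and CCL26 (−0.06) had no called interaction.

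**Figure D2:**
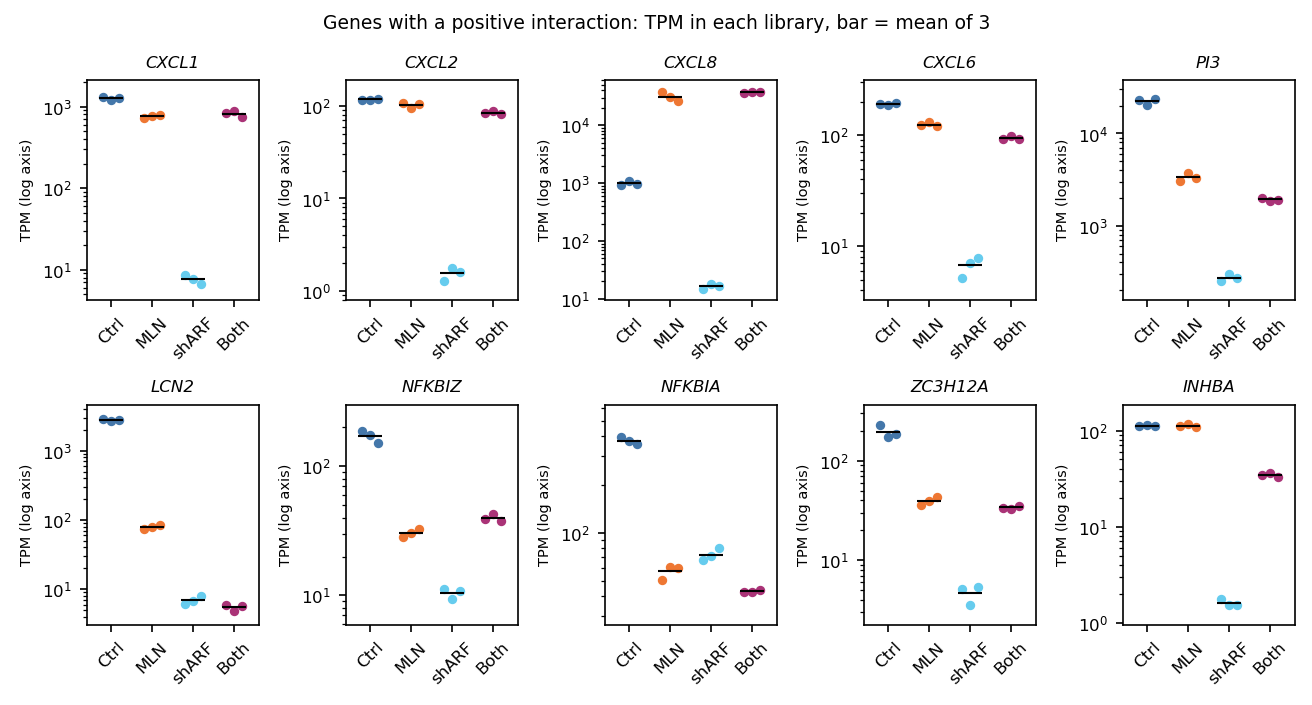
TPM in each of the 12 libraries (points, logarithmic axes) and group means (bars, n = 3) for 10 genes with a positive interaction. For CXCL1, CXCL2, CXCL6, CXCL8 and INHBA the shARF libraries lie far below the other groups, LCN2 is low in both groups of the shRNA line, and NFKBIA is highest in Ctrl.

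The cytokines and colony-stimulating factors had a median interaction of 1.59 over 15 tested genes. In DMSO, 13 of the 15 were lower in shARF than in Ctrl, and with MLN4924 all 15 were lower in Both than in MLN, with median differences between the lines of −2.75 and −1.27. MLN4924 therefore did not bring this list to the level of PC3 cells. IL1A, an alarmin of the interleukin-1 family, was at 11.1, 11.9 and 11 TPM in Ctrl, 56.8, 44.4 and 48 in MLN, 0.741, 0.512 and 0.448 in shARF and 21.9, 22.5 and 17.5 in Both (interaction 2.86, standard error 0.21, adjusted p = 7.02e-07). It rose in both lines, and the Both libraries stayed below the MLN libraries. TNFSF15, a TNF family ligand, fell in PC3 cells from a mean of 19.4 to 2.92 TPM and rose in PC3-shp14ARF cells from 0.611 to 1.95 TPM (interaction 4.23, adjusted p = 2.02e-08). CSF2 (GM-CSF) was at 20.8, 27 and 35.9 TPM in Ctrl, 22.5, 23.1 and 18.2 in MLN and 2.66, 2.7 and 2.41 in Both, and in shARF it was at 0.4 TPM in replicate 1 and listed at 0 in the others. Its interaction of 4.34 (CSF2, adjusted p = 0.000238) and that of CSF3 (8.17, adjusted p = 8.59e-08), listed at 0 in all but 1 shARF library, depend on the pseudocount for their size.

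Not every cytokine followed. Besides LIF (2.05), IL6 (1.97), IL11 (1.68) and IL1B (1.59), which were positive, IL24 (−2.16), the death ligand TNFSF10 (TRAIL, −1.57) and IL18 (−0.89) were negative. IL32, TNF, IL23A and CSF1 had no called interaction, with values from −0.26 to 0.42.

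Acute-phase, complement and epithelial defence genes had a median interaction of 1.29, and the form was again different. In PC3 cells the drug lowered 10 of the 14, and in PC3-shp14ARF cells it lowered 4. S100A9 (−0.62) and ELF3 (−0.58) were negative. LCN2, a siderophore-binding defence protein, was at 2879, 2678 and 2758 TPM in Ctrl, 73.4, 79.2 and 83.9 in MLN, 6.21, 6.71 and 7.95 in shARF and 5.9, 4.85 and 5.76 in Both. Ctrl lay far above the rest and the shRNA line was low with and without the drug. The interaction of LCN2, 4.81 (standard error 0.14, adjusted p = 7.22e-11), came from a log2 change of −5.14 in PC3 cells against −0.33 in PC3-shp14ARF cells. C3, the central complement component, followed it with means of 268, 15.1, 0.466 and 0.365 TPM in Ctrl, MLN, shARF and Both (interaction 3.89). SAA1 was at 69.2, 80.2 and 68.5 TPM in Ctrl and 0.772, 0.59 and 0.394 in MLN, was listed at 0 in every shARF library and was at 0.199 TPM in 1 Both library, so no fold change is given for the shRNA line. PI3, the protease inhibitor elafin, was among the most abundant transcripts of Ctrl, at 22857, 20330 and 23717 TPM, with 3048, 3776 and 3299 in MLN, 249, 297 and 273 in shARF and 2022, 1864 and 1906 in Both. It had a log2 change of −2.73 in PC3 cells and of 2.82 in PC3-shp14ARF cells (interaction 5.55, standard error 0.14, adjusted p = 1.86e-11), and the 4 groups did not overlap.

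Among the regulators of NF-kB, 12 of 24 were positive and 5 negative, with a median of 0.39. Shares were 50% and 20.8%, beside 15.0% and 23.0% over all genes. NFKBIA encodes IkBα, which holds NF-kB in the cytosol and is itself induced by NF-kB. It was at 395, 374 and 357 TPM in Ctrl, 50.7, 60.9 and 60.1 in MLN, 67.3, 71.1 and 80.5 in shARF and 42.7, 42.2 and 43.8 in Both. Ctrl was high and the other 3 groups low, and the interaction of 1.95 (standard error 0.12, adjusted p = 1.1e-07) is the difference of log2 changes of −2.71 and −0.76. NFKBIZ, an atypical IkB needed for a subset of NF-kB targets, was at 187, 173 and 151 TPM in Ctrl, 28.2, 30.5 and 32.8 in MLN, 11.2, 9.43 and 10.9 in shARF and 39.2, 42.9 and 37.8 in Both (interaction 4.39, adjusted p = 1.31e-10). Unlike NFKBIA it rose with the drug in PC3-shp14ARF cells, and every Both library was above every MLN library. ZC3H12A, the RNase regnase-1 that degrades cytokine transcripts, likewise fell in PC3 cells and rose in PC3-shp14ARF cells, with means of 197, 39.7, 4.74 and 34.2 TPM in Ctrl, MLN, shARF and Both (interaction 5.15, adjusted p = 1.7e-09).

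The subunit genes REL (1.13), NFKB1 (0.98) and RELB (0.80) and the feedback genes TNIP1 (1.52), MAP3K8 (1.00), TNFAIP3 (0.88) and BCL3 (0.73) were positive. NFKBIE (−0.93), MAP3K14 (−0.91), TNIP2 (−0.70), TRAF2 (−0.58) and NFKBIB (−0.35) were negative. RELA (−0.26), NFKB2 (0.24) and the kinase subunits CHUK (0.05), IKBKB (−0.14) and IKBKG (−0.17) had no called interaction. Of the 11 positive regulators with a promoter window, 6 held the kB letters, against 0 of 4 negative ones and 1 of 6 uncalled ones. MAP4K4, a kinase upstream of JNK, was among the 12 most positive genes, at 513, 421 and 431 TPM in Ctrl, 40.5, 43.3 and 42.4 in MLN, 69.8, 66.8 and 67.5 in shARF and 45.6, 51.8 and 45.2 in Both (interaction 2.91, adjusted p = 1.7e-09). Only its Ctrl libraries were high.

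Genes of secreted growth factors, matrix and adhesion made up a further part of the positive interactions. INHBA, which encodes the activin A subunit, was at 112, 113 and 111 TPM in Ctrl, 111, 116 and 110 in MLN, 1.76, 1.52 and 1.51 in shARF and 34.3, 36.4 and 32.6 in Both (interaction 4.34, standard error 0.098, adjusted p = 9.67e-12). No change was detected in PC3 cells (log2 change 0.01), whereas the Both libraries lay well above shARF and below MLN. Its antagonist FST (1.55) and the BMP target ID1 (1.24) were also positive, while ID2 (−1.14), BAMBI (−1.06) and SMAD6 (−0.97) were negative. Over the TGF-beta, activin and BMP list the counts were 10 positive and 6 negative of 34. Shares were 29.4% and 17.6%, beside 15.0% and 23.0% over all genes.

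Of the 39 matrix, integrin and protease genes 22 were positive, with a median interaction of 0.48. LAMB3, a chain of laminin-332, was at 159, 130 and 140 TPM in Ctrl, 307, 379 and 370 in MLN, 19, 17.8 and 21.3 in shARF and 280, 265 and 263 in Both (interaction 2.50, standard error 0.14, adjusted p = 4.64e-08). The laminin-332 chain gene LAMA3 (1.02) was positive too, and so were SERPINB2 (2.09), MMP14 (1.93), the urokinase gene PLAU (0.98) and the integrin genes ITGA3 (0.99), ITGB3 (0.99), ITGAV (0.90), ITGA2 (0.82) and ITGB1 (0.69). Several matrix metalloproteinases were negative. MMP13, collagenase-3, was at 7.11, 7.6 and 7.18 TPM in Ctrl, 71.5, 58.5 and 66.1 in MLN, 86.3, 88.8 and 85.6 in shARF and 68.9, 87.6 and 65.7 in Both (interaction −3.38, standard error 0.14, adjusted p = 3.48e-09). Ctrl was the low group, and the other groups lay close together. MMP1 (−1.72) and MMP10 (−0.91) were negative, but MMP3 was positive (0.48).

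In the list of AP-1, MAPK feedback and EGF ligand genes, 14 of 38 were positive and 9 negative. These were 36.8% and 23.7% of the list, beside 15.0% and 23.0% over all genes. The positive ones held the EGF receptor ligands EPGN (2.98), BTC (1.49), AREG (0.66) and TGFA (0.52) and the MAPK phosphatases DUSP6 (1.34), DUSP4 (1.10) and DUSP5 (0.98). EPGN averaged 0.346 TPM in shARF, and its interaction ranged from 1.79 to 3.29 over the alternative settings. DUSP6 was at 312, 279 and 282 TPM in Ctrl, 227, 254 and 256 in MLN, 118, 118 and 118 in shARF and 251, 272 and 238 in Both (adjusted p = 7.08e-07), so the lines differed in DMSO and overlapped with MLN4924. AP-1 subunits were divided, with JUN (0.89) and FOSL2 (0.62) positive, FOS (−1.53), JUND (−0.85), FOSB (−0.67) and JUNB (−0.51) negative, and FOSL1 (−0.12) not called. IER3, an immediate early survival gene, was positive at 1.18.

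Interferon-stimulated genes had the largest share of called members of any list, 28 of 32, all negative, with a median of −1.01. MLN4924 raised 30 of the 32 in PC3 cells but 18 in the shRNA line, with median log2 changes of 1.39 and 0.37. In DMSO, 23 of the 32 were higher in shARF than in Ctrl (median 0.39), and with MLN4924, 26 were lower in Both than in MLN (median −0.62), so the order of the lines turned over. The promoters of IFIT3 and IFITM1 are shown for their interferon response elements, with capitals at matches to TTTC, any 2 bases, TTTC on either strand.
IFIT3, chr10:89327767-89328016, plus strand: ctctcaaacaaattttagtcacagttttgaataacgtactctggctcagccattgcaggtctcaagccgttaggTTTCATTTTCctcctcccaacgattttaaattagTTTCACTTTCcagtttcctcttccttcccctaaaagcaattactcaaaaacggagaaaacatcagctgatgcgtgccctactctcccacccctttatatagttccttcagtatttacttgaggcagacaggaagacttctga
IFITM1, chr11:313810-314059, plus strand: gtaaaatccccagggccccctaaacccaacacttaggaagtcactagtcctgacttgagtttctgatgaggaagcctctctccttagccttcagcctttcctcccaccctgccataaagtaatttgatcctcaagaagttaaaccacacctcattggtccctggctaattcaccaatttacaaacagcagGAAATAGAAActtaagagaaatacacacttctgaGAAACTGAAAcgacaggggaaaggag
These letters were found in 3.57% of all windows. They were found in 13 of the 20 windows of negative interferon-stimulated genes and in 2 of the 4 windows of uncalled ones. The motif was added after the values were known.

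IFITM1, a membrane protein that restricts viral entry, was at 275, 254 and 247 TPM in Ctrl, 1557, 1773 and 1696 in MLN, 428, 648 and 543 in shARF and 709, 818 and 788 in Both (interaction −2.16, standard error 0.17, adjusted p = 1.22e-06). The MLN libraries were the highest, and Both lay between shARF and MLN without overlap. IFIT3, which belongs to a family that binds foreign RNA, was at 108, 109 and 109 TPM in Ctrl, 438, 349 and 428 in MLN, 150, 178 and 163 in shARF and 139, 185 and 150 in Both (interaction −1.95, standard error 0.15, adjusted p = 1.11e-06). In this gene shARF and Both overlapped and no response was called in PC3-shp14ARF cells (log2 change −0.06, adjusted p = 0.639). OASL was likewise raised in PC3 cells only, from 43.2, 37.5 and 42.2 TPM to 136, 141 and 141, against 43.6, 44.6 and 44.9 in shARF and 41.1, 52.4 and 47.5 in Both (interaction −1.69, adjusted p = 3.96e-07).

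IRF1, a transcription factor of the interferon response, rose in both lines, to 45.3, 54.6 and 56.2 TPM in MLN and 34.9, 36 and 38.9 in Both, from 9.5, 7.69 and 9.04 in Ctrl and 19.6, 19.6 and 23.1 in shARF (interaction −1.74, adjusted p = 1.88e-06). The signal transducers STAT2 (−0.94), IRF7 (−0.46) and IRF9 (−0.38) were negative with smaller values, as were the RNA sensor IFIH1 (−1.02) and the effectors ISG15 (−1.59), OAS1 (−1.57), BST2 (−1.31), RSAD2 (−0.99) and MX1 (−0.85). IFI27 (0.26), HERC6 (−0.20), DDX58 (0.10) and ISG20 (−0.07) had no called interaction. IFITM1, IFITM2 and IFITM3 are close in sequence, so their values may share reads. IFI30, a lysosomal thiol reductase induced by interferon, was outside the list and among the 12 most negative genes, at 38, 29.2 and 35 TPM in Ctrl, 76.7, 94.2 and 80 in MLN, 68.6, 88.8 and 88.5 in shARF and 40.9, 39.3 and 43.9 in Both (interaction −2.27, adjusted p = 6.66e-07). It rose in PC3 cells and fell in PC3-shp14ARF cells.

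The genes of DNA replication had negative interactions of a different form. Of the 23 licensing factors, which load the MCM helicase at origins, 21 were higher in shARF than in Ctrl (median 1.06 on the log2 scale) and 6 were higher in Both than in MLN (median 0.15). Their median log2 response to the drug was 0.78 in PC3 cells and −0.08 in the shRNA line. The promoters of CDT1 and GINS2 are shown because E2F factors are known to drive such genes, with capitals at matches to the E2F letters TTTNNCGC on either strand.
CDT1, chr16:88803559-88803808, plus strand: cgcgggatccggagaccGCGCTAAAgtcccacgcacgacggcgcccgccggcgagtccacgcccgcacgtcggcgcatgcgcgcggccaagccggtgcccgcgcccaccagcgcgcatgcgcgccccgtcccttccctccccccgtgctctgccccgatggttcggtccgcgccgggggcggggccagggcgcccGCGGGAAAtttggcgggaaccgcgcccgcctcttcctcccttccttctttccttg
GINS2, chr16:85688935-85689184, minus strand: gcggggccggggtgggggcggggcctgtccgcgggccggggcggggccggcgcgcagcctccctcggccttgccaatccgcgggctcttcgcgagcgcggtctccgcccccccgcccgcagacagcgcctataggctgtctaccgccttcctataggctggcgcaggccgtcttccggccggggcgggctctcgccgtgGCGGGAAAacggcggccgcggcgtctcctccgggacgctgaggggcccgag
These letters were in 6.89% of all windows, in 9 of 14 windows of negative licensing factors and in 2 of 6 of uncalled ones.

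CDT1, the licensing factor that cullin-RING ligases destroy in S phase, was at 19, 17.4 and 17.3 TPM in Ctrl, 84.4, 95.1 and 108 in MLN, 43.6, 40.3 and 53.3 in shARF and 79, 75.3 and 94.4 in Both (interaction −1.55, standard error 0.16, adjusted p = 1.42e-05). Its transcript rose in both lines to levels that overlapped, from a higher start in shARF. GMNN (geminin), the inhibitor of CDT1, was at 20.6, 24.2 and 27.4 TPM in Ctrl, 73.2, 65.7 and 64.4 in MLN, 60.5, 60.6 and 59.7 in shARF and 57.7, 63.7 and 75.4 in Both (interaction −1.38, adjusted p = 1.84e-05). Only Ctrl was low. MCM5, a helicase subunit, rose in PC3 cells from 14.6, 14.1 and 16.7 to 22.7, 26.3 and 30.4 TPM and fell in PC3-shp14ARF cells from 39.4, 37 and 41.9 to 22.8, 22.1 and 23.9 TPM (interaction −1.58, adjusted p = 3.35e-06). MCM4 (−1.21), MCM2 (−1.16), MCM7 (−1.01), MCM3 (−0.93) and MCM6 (−0.86) were negative as well, and so were GINS2 (−1.30), ORC1 (−1.24), CDC6 (−1.07) and CDC45 (−0.95). The constitutive origin recognition subunits ORC2, ORC3, ORC4 and ORC5 had no called interaction, with values from −0.05 to 0.22.

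At the replication fork, 27 of 32 genes were negative (median −0.62), and 31 were higher in shARF than in Ctrl. With MLN4924, 18 were still higher and 3 lower in Both than in MLN, with median line differences of 0.88 in DMSO and 0.25 with the drug. PCNA, the sliding clamp, was at 198, 204 and 234 TPM in Ctrl, 662, 675 and 686 in MLN, 452, 463 and 432 in shARF and 656, 638 and 660 in Both (interaction −1.13, standard error 0.094, adjusted p = 1.8e-06). RFC2, a subunit of the clamp loader, rose to 110, 122 and 121 TPM in MLN from 45.4, 42.1 and 48.4 in Ctrl, and was at 83.3, 80.5 and 80.5 in shARF and 76.3, 81.7 and 75.9 in Both (interaction −1.44, adjusted p = 2.26e-07). PCNA rose in both lines, whereas the shARF and Both libraries of RFC2 overlapped. Thymidine supply genes TK1 (−1.37) and TYMS (−1.20), DNA ligase LIG1 (−1.04) and the chromatin assembly gene CHAF1A (−0.98) were negative, and POLA1 (−0.02), PRIM2 (0.08), RFC1 (−0.13), POLD2 (−0.20) and RPA3 (−0.37) were not called.

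DNA damage checkpoint, homologous recombination and Fanconi genes followed with 20 of 31 negative (median −0.56), led by TONSL (−1.10), XRCC3 (−1.10), EXO1 (−1.08) and RAD54L (−1.05). RAD54L, a motor of homologous recombination, was at 11.1, 10.4 and 12.1 TPM in Ctrl, 37.9, 43.7 and 50.5 in MLN, 24.7, 25.3 and 28.8 in shARF and 51.5, 48.5 and 47.6 in Both (adjusted p = 9.38e-05), overlapping between the lines only with the drug. BRCA1 (−0.65), CHEK2 (−0.65) and FANCD2 (−0.44) were negative, and the apical kinases ATR (−0.08) and CHEK1 (−0.20) were not called.

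Mitotic genes differed in that the drug lowered most of them in the shRNA line, 28 of 45, with 8 raised. In PC3 cells it lowered 19 and raised 15. The interaction was negative in 29 of the 45, with a median of −0.38. PLK1, a kinase of mitotic entry, was at 55.1, 51.9 and 52.3 TPM in Ctrl, 11.3, 12.5 and 15.7 in MLN, 87, 80.4 and 82.8 in shARF and 11.1, 11.4 and 10.8 in Both (interaction −0.87, standard error 0.14, adjusted p = 0.000289). PLK1 thus fell in both lines to levels that overlapped, from a higher start in shARF. CDC20, the activator of the anaphase-promoting complex, fell below the PC3 level, to 49.1, 47.9 and 44.5 TPM in Both against 71.4, 81.6 and 88.7 in MLN, from 210, 202 and 215 in shARF and 168, 155 and 166 in Ctrl (interaction −1.13, adjusted p = 6.43e-06). CCNA2 (−0.95), CCNB1 (−0.87), AURKB (−0.70) and CDK1 (−0.54) were negative, and MKI67 (−0.05), FOXM1 (−0.16), KIF11 (−0.31) and TPX2 (0.10) were not called. The count of 29 became 13 in a fit with the library number as a block, a fit that gives no weight to Both replicate 4. The mitotic count was 21 under median-of-ratios scaling and at least 22 with any 1 library left out. Over all genes 3368 were called negative, which became 1828 with the block and 2804 with that scaling.

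Regulators of the cell cycle were mixed, with 14 of 28 negative and 4 positive (50% and 14.3%, beside 23.0% and 15.0% over all genes). CDKN1A (p21) had the largest of the 4 positive interactions and the only one of them above 1. It was at 11.8, 11.7 and 13.2 TPM in shARF against 106 to 124 TPM in Ctrl, with 299, 340 and 394 in MLN and 219, 205 and 183 in Both (interaction 2.44, standard error 0.14, adjusted p = 1.05e-07). The INK4 genes CDKN2D (−1.11) and CDKN2C (−1.06) and CDKN1B (p27, −0.67) were negative. The activating factors E2F2 (−1.77) and E2F1 (−1.21) were negative and E2F3 (0.31), E2F7 (0.05) and E2F8 (0.13) were not called. E2F1 was at 34.4, 26.8 and 32.5 TPM in Ctrl, 137, 147 and 162 in MLN, 66.3, 70.9 and 80.1 in shARF and 143, 139 and 165 in Both (adjusted p = 4.94e-05), again with lines that differed in DMSO and overlapped with the drug. WEE1, the kinase that restrains CDK1, had an interaction of −1.11, while CCND1 (−0.06), CDK4 (−0.18) and RB1 (0.12) were not called.

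**Figure D3:**
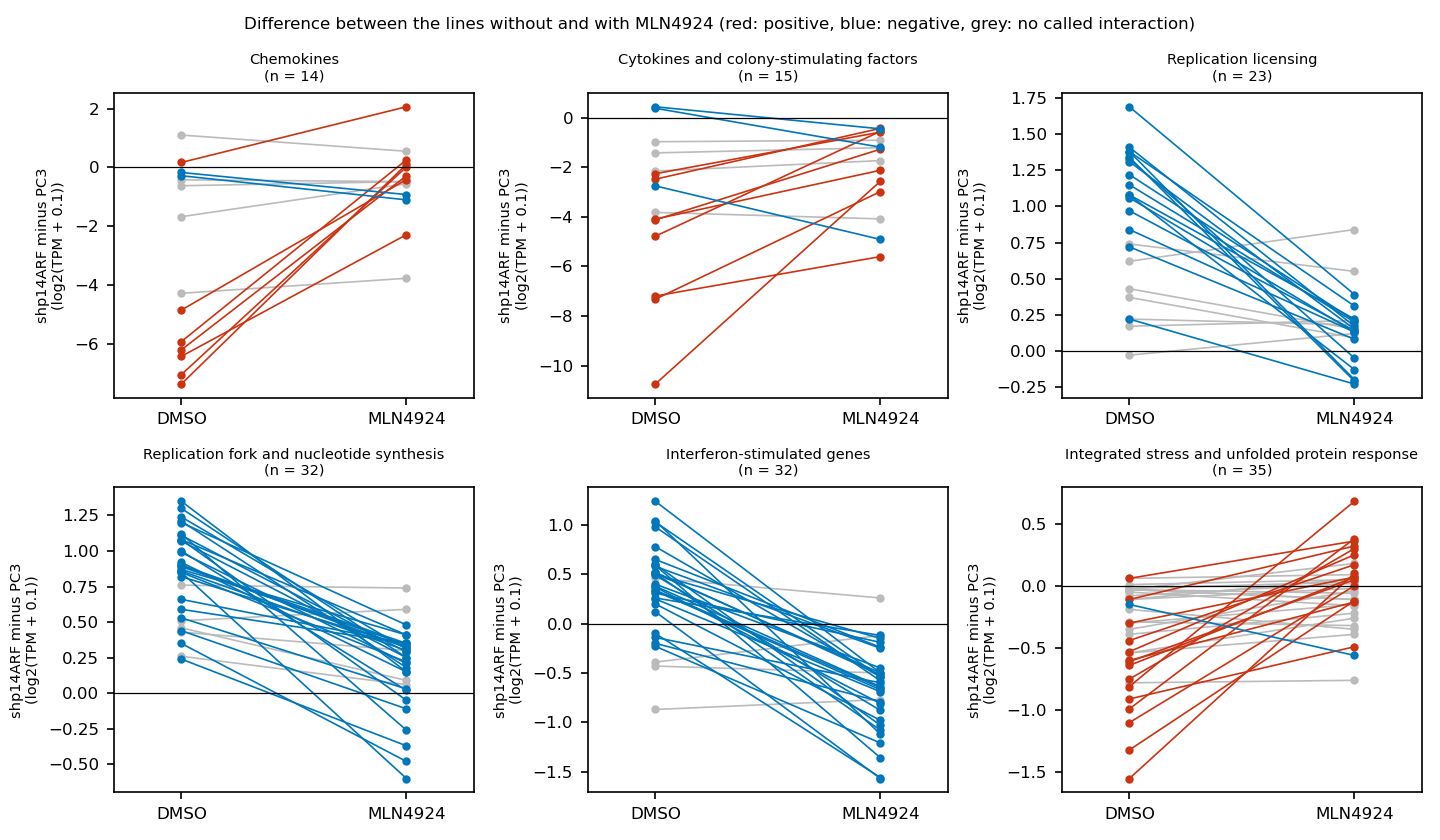
Difference between PC3-shp14ARF and PC3 cells (log2(TPM + 0.1), group means) in DMSO and with MLN4924 for the tested members of 6 lists, joined by a line per gene and coloured by the call of the interaction. Most chemokines with a positive interaction and most licensing factors lie nearer to 0 with the drug, from opposite sides, while most interferon-stimulated genes cross from above 0 to below it.

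Of the 35 genes of the integrated stress and unfolded protein response, 15 were positive and 1 negative (ATF3, −0.41), with a median of 0.21. In DMSO, 19 were lower in shARF than in Ctrl and 0 were higher. ASNS, asparagine synthetase and a target of ATF4, was at 218, 223 and 234 TPM in Ctrl, 268, 302 and 287 in MLN, 130, 134 and 121 in shARF and 467, 488 and 419 in Both (interaction 1.49, standard error 0.10, adjusted p = 3.36e-07). Here the order of the lines turned, with shARF the lowest group and Both the highest. DNAJB9, a chaperone cofactor of the endoplasmic reticulum, fell in PC3 cells from 50.2, 58.3 and 54.9 to 49.5, 38.4 and 38.9 TPM and rose in PC3-shp14ARF cells from 17.7, 19.3 and 18.7 to 47.4, 47 and 41.3 TPM (interaction 1.65, adjusted p = 2.05e-06). TRIB3 (1.37), DNAJC3 (1.19), the sensor ERN1 (1.10), HSPA5 (BiP, 0.47) and ATF4 (0.37) were positive, while DDIT3 (CHOP, −0.11), XBP1 (−0.08) and CHAC1 (0.15) were not called.

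NRF2 targets responded to MLN4924 in both lines, with median log2 rises of 1.28 and 1.43, and the interactions were divided, 12 positive and 7 negative of 32. Shares were 37.5% and 21.9%, beside 15.0% and 23.0% over all genes. HMOX1, heme oxygenase 1, was at 74.1, 64.6 and 72 TPM in Ctrl, 169, 217 and 237 in MLN, 49.9, 46.6 and 46.5 in shARF and 402, 406 and 351 in Both (interaction 1.46, standard error 0.15, adjusted p = 1.22e-05). Every Both library lay above every MLN library. AKR1C2 rose from below 1 TPM in both lines to means of 82.9 TPM in MLN and 219 TPM in Both (interaction 0.80, adjusted p = 0.00746), a call lost with a library-number block, and it shares sequence with AKR1C1 (0.64) and AKR1C3 (0.58). TXNRD1 (0.61) and NFE2L2 itself (0.39) were positive. KEAP1 (−0.61), GCLC (−0.45) and NQO1 (−0.37) were negative, and GCLM (0.18), SRXN1 (0.18), TXN (0.00) and the ferritin genes FTL (0.04) and FTH1 (−0.01) were not called.

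Among lysosome and autophagy genes, 9 of 35 were positive and 2 negative (25.7% and 5.71%, beside 15.0% and 23.0% over all genes). ATG7, an enzyme of LC3 conjugation, was at 39.9, 35.7 and 38.8 TPM in Ctrl, 5.11, 5.96 and 6.52 in MLN, 19.5, 19.9 and 19.7 in shARF and 9, 8.49 and 7.67 in Both (interaction 1.46, adjusted p = 3.2e-06), so it fell less from a lower start. SQSTM1 (p62) had an interaction of 1.13, MAP1LC3B one of 0.54, and NPC2 (−0.67) and CTSA (−0.65) were negative. The negative count of this list was 7 without MLN replicate 1, 5 without Ctrl replicate 1 and 4 without Both replicate 2.

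For the SUMO pathway, whose transcripts the study asked about, 4 of 22 tested genes were positive and 4 negative, shares of 18.2% each beside 15.0% and 23.0% over all genes, and the median was −0.03 (0.06 with median-of-ratios scaling). These counts rested on single libraries. The positive count was 2 without MLN replicate 2 or shARF replicate 1, and the negative count was 1 without Ctrl replicate 2 or shARF replicate 5 and 2 when any of MLN replicates 2 and 5 or Both replicate 4 was left out. SUMO2 had an interaction of −0.15 (standard error 0.078, adjusted p = 0.147). The protease SENP7 (0.53), the SUMO-targeted ligase RNF111 (0.49) and SENP1 (0.30) were positive, and the activating enzyme subunits SAE1 (−0.47) and UBA2 (−0.32) and SENP3 (−0.30) were negative. SAE1 was not called without Ctrl replicate 2, shARF replicate 5 or Both replicate 4.

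Genes of NEDD8 conjugation, the target pathway of the drug, had few calls, with 3 of 35 positive and 5 negative. Shares were 8.57% and 14.3%, beside 15.0% and 23.0% over all genes. NEDD8 (−0.19), the activating enzyme subunits NAE1 (−0.25) and UBA3 (0.25) and the conjugating enzymes UBE2M (−0.17) and UBE2F (−0.24) had no called interaction. The cullin CUL3, which joins the adaptor KEAP1, was at 21.2, 19.7 and 22.4 TPM in Ctrl, 19.5, 20.4 and 21.3 in MLN, 20.4, 21.9 and 21.5 in shARF and 30.8, 33.5 and 30.5 in Both (interaction 0.62, standard error 0.097, adjusted p = 0.000321). Only Both stood apart. DCUN1D3 (1.09) and CUL9 (0.53) were positive. CAND2 (−1.07), RBX1 (−0.47), COPS2 (−0.42), GPS1 (−0.35) and SKP2 (−0.25) were negative, and the negative count was 2 under median-of-ratios scaling and 3 without MLN replicate 2, shARF replicate 1, Both replicate 2 or Both replicate 4.

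Genes known as p53 targets were mixed in these cells, with 4 of 26 positive and 9 negative. These were 15.4% and 34.6% of the list, beside 15.0% and 23.0% over all genes, and the counts were 6 and 7 under median-of-ratios scaling. CDKN1A and the death receptor gene TNFRSF10B (0.80) were positive, and GADD45A (−0.94), SFN (−0.77), BBC3 (PUMA, −1.22) and TP53INP1 (−0.88) were negative, while MDM2 (0.07) and BAX (−0.21) were not called. GADD45A was at 96.9, 90.5 and 97.9 TPM in Ctrl, 430, 444 and 511 in MLN, 115, 115 and 123 in shARF and 271, 296 and 327 in Both (adjusted p = 4.7e-05), so it rose in both lines and less in PC3-shp14ARF cells.

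Of 32 regulators of apoptosis 7 were positive and 12 negative (21.9% and 37.5%, beside 15.0% and 23.0% over all genes). The survival genes BCL2A1 (2.69), BCL2L1 (1.02), XIAP (0.58) and BIRC2 (0.52) were positive, and the death-promoting genes BMF (−2.32), BBC3 (−1.22), BAK1 (−0.89), BAD (−0.71), BOK (−0.69), BID (−0.49), BCL2L11 (−0.44), DIABLO (−0.30) and APAF1 (−0.28) were negative, as was FADD (−0.45), although the survival gene MCL1 (−0.30) was negative too and the receptor TNFRSF10B and the caspase genes CASP10 (0.68) and CASP6 (0.35) were positive. BCL2A1, a target of NF-kB, was at 82.5, 97.7 and 104 TPM in Ctrl, 339, 285 and 231 in MLN, 3.9, 6.56 and 4.08 in shARF and 82.9, 98.9 and 98 in Both (adjusted p = 5.36e-06). Both stayed below MLN in spite of the larger rise. BMF, which binds and blocks survival proteins, was at 8.43, 7.06 and 7.95 TPM in Ctrl, 7.75, 10.3 and 9.97 in MLN, 3.7, 4.19 and 3.93 in shARF and 0.825, 0.92 and 0.831 in Both (adjusted p = 9.29e-07). It fell only in PC3-shp14ARF cells, and Both was the lowest group.

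In ribosome biogenesis, 26 of 39 nucleolar factors were negative (median −0.39), 22 under median-of-ratios scaling and 11 with the library-number block. Over all genes 3368 were negative, 2804 with that scaling and 1828 with the block. NCL, nucleolin, was at 342, 327 and 313 TPM in Ctrl, 196, 192 and 204 in MLN, 504, 467 and 512 in shARF and 192, 205 and 188 in Both (interaction −0.62, standard error 0.087, adjusted p = 0.000144). The lines overlapped with the drug, and in DMSO nucleolin was higher in shARF, as were 29 of the 39 factors. POLR1C (−0.91), RRP9 (−0.87), NOLC1 (−0.65), FBL (−0.49) and UBTF (−0.45) were negative, and NPM1, whose product binds p14ARF, was not called (−0.21). Of 77 cytosolic ribosomal protein genes 15 were negative and 0 positive (1 positive without MLN replicate 1), led by RPS26 (−0.78). The negative share of 19.5% was below the 23.0% over all genes, and 9 were negative under median-of-ratios scaling.

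Energy metabolism had smaller values. Of 34 glycolysis and HIF genes 15 were negative and 2 positive (44.1% and 5.88%, beside 23.0% and 15.0% over all genes). CA9 (−1.58), ALDOC (−0.97), LDHA (−0.70) and ENO1 (−0.49) were among the negative ones, while VEGFA (1.20) and P4HA1 (0.68) were positive. The negative count became 4 with the library-number block, in which CA9 lost its call (adjusted p = 0.0548). Over all genes the fit with the block called 1828 negative, against 3368. VEGFA was at 43.7, 39 and 42.4 TPM in Ctrl, 33.3, 30.3 and 37.5 in MLN, 16.3, 16.6 and 17 in shARF and 30.3, 30.8 and 31.4 in Both (adjusted p = 3.53e-06). It thus fell in PC3 cells and rose in PC3-shp14ARF cells, to levels that overlapped.

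Of 49 nuclear genes of oxidative phosphorylation 16 were negative (32.7%, beside 23.0% over all genes) and 2 positive, but the negative count was 6 under median-of-ratios scaling. All 13 mitochondrial genes had an interaction above 0, and MT-CO2 (0.85), MT-CO1 (0.79) and MT-ND4 (0.76) were called. The share of TPM from mitochondrial genes was 7.85% to 10.9% in Ctrl, 8.43% to 12.9% in MLN, 6.04% to 8.03% in shARF and 10.2% to 13.2% in Both. Leaving out Ctrl replicate 2, Ctrl replicate 3, MLN replicate 2, MLN replicate 5, shARF replicate 5 or Both replicate 4 left 0 called mitochondrial genes, without Both replicate 3 there was 1 and without MLN replicate 1 there were 5. This share enters the TPM total of every library, and its part was examined by rescaling TPM without these genes, a setting added after the data were seen. Then 5907 genes were called, 47.5% of the calls were positive, and 5279 of the 5566 genes were called again (94.8%), 0 of them with the opposite sign.

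Among cholesterol and fatty acid synthesis genes 12 of 33 were negative and 3 positive (36.4% and 9.09%, beside 23.0% and 15.0% over all genes). The positive count was 1 without Ctrl replicate 2, MLN replicate 5 or Both replicate 3, and the negative count ranged from 8 without Ctrl replicate 3 to 17 without MLN replicate 1. HMGCS1, the first committed enzyme of the pathway, was at 45.5, 46.6 and 47.7 TPM in Ctrl, 54.7, 51.9 and 51 in MLN, 102, 98.8 and 104 in shARF and 68.6, 80.2 and 66.5 in Both (interaction −0.68, standard error 0.098, adjusted p = 0.000185), and it rose in PC3 cells and fell in PC3-shp14ARF cells. FDFT1 (−0.53) was negative and FADS1 (0.77) was positive. Of 35 proteasome genes 10 were negative (28.6%, beside 23.0% over all genes), and 7 under median-of-ratios scaling. PSMD3 (−0.72) and PSMB5 (−0.58) were in front, and NFE2L1 (0.36), the factor that induces proteasome genes, was positive. The positive count was 0 without any of Ctrl replicate 1, MLN replicates 1 and 2, the 3 shARF replicates or Both replicates 2 and 3. Of 21 heat shock genes 8 were negative, a larger share than the 23.0% over all genes. HSPE1 (−0.67), HSPD1 (−0.62) and HSPB1 (−0.54) were among them, and BAG3 (0.84) was positive. The 8 became 5 under median-of-ratios scaling and without any of Ctrl replicates 1 and 2, MLN replicates 2 and 5, shARF replicates 1 and 5 or Both replicates 2 and 4. Over all genes, median-of-ratios scaling took the negative calls from 3368 to 2804. Of 25 clustered histone genes tested, 25 others being below the filter, 6 were negative and 2 positive. Shares were 24% and 8%, beside 23.0% and 15.0% over all genes. Only 1 was positive without any of Ctrl replicate 3, MLN replicates 2 and 5, shARF replicates 1 and 5 or Both replicate 3. Near-identical copies make the values of single histone genes uncertain.

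Junction, keratin and EMT genes had 16 negative and 7 positive members of 30 (53.3% and 23.3%, beside 23.0% and 15.0% over all genes). The epithelial genes PKP3 (−1.44), EPCAM (−1.17), KRT18 (−1.17), CDH1 (E-cadherin, −1.16), CLDN3 (−0.94) and KRT8 (−0.89) were negative, and the mesenchymal genes FN1 (2.36), CDH2 (N-cadherin, 1.38), SNAI2 (0.92) and ZEB1 (0.82) were positive. Exceptions were SNAI1 (−1.95) and TWIST1 (−0.59), which are EMT factors with a negative interaction, the epithelial genes ESRP1 (1.25) and CLDN1 (0.64), which were positive, and VIM (−0.01), which was not called. FN1, fibronectin, was at 26.8, 22 and 25 TPM in Ctrl, 29.6, 33.1 and 35.9 in MLN, 3.54, 3.46 and 3.35 in shARF and 25.6, 24.5 and 22.5 in Both (adjusted p = 4.2e-08). CDH2 was at 118, 114 and 111 TPM in Ctrl, 40, 42.2 and 43 in MLN, 50.3, 46.6 and 49.4 in shARF and 46.7, 47.8 and 44.3 in Both (adjusted p = 1.12e-07). FN1 was low in shARF alone, whereas CDH2 was high in Ctrl alone, so the same sign arose from different patterns. SNAI1 was at 9.17, 8.34 and 6.31 TPM in Ctrl, 42.2, 57.3 and 72.2 in MLN, 14.8, 13 and 15.1 in shARF and 29.8, 26.2 and 22.6 in Both (adjusted p = 7.25e-05), and MLN was its highest group.

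The genes with the most negative interactions belonged to no single function. ENTPD2, an ectoenzyme that hydrolyses extracellular ATP, was at 4.21, 3.07 and 3.81 TPM in Ctrl, 4.04, 4.68 and 4.7 in MLN, 38.6, 36.8 and 41.5 in shARF and 1.76, 1.1 and 1.89 in Both (interaction −4.85, standard error 0.24, adjusted p = 2.08e-08). It was high in shARF alone and lowest in Both. CIDEC, a lipid droplet protein (−3.32), and FAM167B (−2.73) also had shARF as their highest group, at means of 16.5 and 36 TPM against 2.02 and 6.11 in Both. CDH3, P-cadherin, fell in both lines, from 26.7, 22.3 and 23.7 to 10.9, 13.1 and 11 TPM in PC3 cells and from 51.4, 49.8 and 52 to 4.61, 3.34 and 4.43 TPM in PC3-shp14ARF cells (interaction −2.56, adjusted p = 2.04e-07).

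A second form was a rise in PC3 cells with no rise or a fall in PC3-shp14ARF cells. CRABP2, a retinoic acid carrier, was at 194, 177 and 184 TPM in Ctrl, 511, 593 and 552 in MLN, 418, 380 and 380 in shARF and 235, 229 and 231 in Both (interaction −2.33, standard error 0.095, adjusted p = 2.87e-09). C1QL1 was at 20.3, 17.3 and 15 TPM in Ctrl, 56.6, 69 and 78.8 in MLN, 15.4, 16.8 and 19.7 in shARF and 10.1, 10.6 and 12.1 in Both (interaction −2.61, adjusted p = 6.88e-07). ELOVL3, a fatty acid elongase, rose to 15.2, 12.6 and 14.6 TPM in MLN and stayed between 1.93 and 4.28 TPM in the other 3 groups (interaction −2.26, adjusted p = 0.000203). In C1QL1 and ELOVL3 the lines overlapped in DMSO and differed with the drug. MUC13, a membrane mucin, rose in both lines, from means of 2.14 to 53.1 TPM in PC3 cells and 35.3 to 120 TPM in PC3-shp14ARF cells (interaction −2.84, adjusted p = 9.77e-08).

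The genes AC073896.1 and AL359397.1 complete the 12 most negative genes, and they are less certain. AC073896.1 was at 5.33, 29.6 and 35.8 TPM in MLN and 32.8, 5.91 and 7.07 in Both, so its libraries spread widely within groups, and its interaction of −3.17 (standard error 0.93, adjusted p = 0.0169) lost its call without Both replicate 3 (adjusted p = 0.0505) and with the library-number block (0.0646). AL359397.1 had an interaction of −2.93 (standard error 0.46, adjusted p = 0.000342). On the positive side, the transcription factor GLIS3 (3.29) fell in PC3 cells from 19.5, 16.1 and 16.8 to 4.3, 4.49 and 5.3 TPM and rose in PC3-shp14ARF cells from 1.23, 1.52 and 1.29 to 3.8, 3.98 and 3.46 TPM. OSCAR (3.14), a collagen receptor, rose in both lines, from 14.7, 11.9 and 11.2 to 51.4, 59.5 and 47.5 TPM and from 1.21, 1.12 and 1.07 to 43.8, 46.1 and 46.2 TPM. For both genes shARF was the low group. With MLN4924 the lines differed by −0.31 in GLIS3 and −0.21 in OSCAR on the log2 scale, of which that of OSCAR was not called.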

How the data were processed

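RNA-seq libraries, 3 in each of 4 groups, were analysed. Reads were trimmed and mapped to hg38 in CLC Genomics Workbench, and the authors deposited TPM for 43622 genes without a filter. TPM keep no read depth, so neither counting errors nor a count test could be had. Library columns were assigned to groups by their names, and 0 columns were left over. The deposited columns of each group were treated as replicates.

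Genes averaging 1 TPM or more were fitted as log2(TPM + 0.1) with limma 3.58.1 in R 4.3.3, with a mean for each group, moderated variances with a trend, and Benjamini-Hochberg adjustment over all genes tested (threshold 0.05). The standard errors are from this fit. Alternatives were pseudocounts of 1 and 0.01, filters of 0.1 and 10 TPM and none, median-of-ratios scaling, no trend, a library-number block, each library left out, and TPM rescaled without mitochondrial genes. Lists were matched by symbol and RefSeq synonym, with 4 of 1005 entries unmatched. Genes named were CDKN2A, SUMO2, the 12 most positive and 12 most negative called genes averaging 5 TPM overall and 1 TPM in each group, and up to 4 called members of each list. Some genes are not reported here. Other members are examples chosen with their values known. Members and lists were chosen with earlier results of these data known. Promoter sequences are from RefSeq (GRCh38.p14) and gene positions from GENCODE on GRCh38. The fit was tested on simulated data. Deviations of 10 same-numbered pairs of libraries correlated between −0.147 and 0.063, and those of 44 other pairs between −0.113 and 0.126. Library numbers thus gave no sign of pairing, although this cannot show that the samples were unpaired.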

Additional observations from a re-analysis of the deposited data

Results flagged for a closer look

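The response to MLN4924 differed between the lines, by the test of the difference itself, in 5566 genes. The 12 largest values in each direction among genes averaging at least 5 TPM overall and 1 TPM in each group are given, and genes below these limits, such as CSF3, SAA1 and CXCL3, can have larger ones. Positive interactions on the log2 scale were those of CXCL1 (7.47), CXCL8 (6.16), CXCL2 (5.91), PI3 (5.55), ZC3H12A (5.15), LCN2 (4.81), CXCL6 (4.42), NFKBIZ (4.39), INHBA (4.34), GLIS3 (3.29), OSCAR (3.14) and MAP4K4 (2.91). Negative ones were those of ENTPD2 (−4.85), MMP13 (−3.38), CIDEC (−3.32), AC073896.1 (−3.17), AL359397.1 (−2.93), MUC13 (−2.84), FAM167B (−2.73), C1QL1 (−2.61), CDH3 (−2.56), CRABP2 (−2.33), IFI30 (−2.27) and ELOVL3 (−2.26). Groups of 3 libraries are too small for a test of single outlying libraries.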

How the results depend on the processing

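No gene called both in the reported analysis and under an alternative changed sign. The number of genes with an interaction beyond 1 was 532 of 9330 tested with a filter of 10 TPM, against 1272 of 14663. With the library number as a replicate block, which gives no weight to Both replicate 4, the number of genes called was 3496 and of genes called negative 1828. With 1 library left out, called genes numbered 4754 to 5803, positive ones 1890 to 2388, negative ones 2816 to 3681 and those beyond 1 from 1192 to 1299. Over the named genes, 79 of the alternative values lost a call, 4 gained one and 1, not called, went from below 0 to 0 with median-of-ratios scaling. Of the list counts, 1157 stayed within 1.5 times and 103 moved further. Under the block, negative counts fell to 13 for mitosis, 11 for nucleolar factors, 4 for glycolysis, 5 for cholesterol synthesis and 10 for epithelial genes. Without Both replicate 4 and with no block, 5482 genes were called. With any 1 library left out, the lowest negative counts were 22 for mitosis, 20 for nucleolar factors, 12 for glycolysis, 8 for cholesterol synthesis and 15 for epithelial genes. Cause was not tested for these changes. TPM give no depth, so the precision of low values is unknown.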
